A study of Mus musculus with 24 samples.

Results

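miR-146a and miR-146b are the 2 members of the mouse miR-146 family, and they were taken by name from a deposited table of 510 miRNAs, each as 1 row of read counts (mir-146a and mir-146b). Both were counted in every one of 24 small RNA libraries of mammary tissue, and both passed the filter on low counts. The tumor mice were FVB females heterozygous for the PyMT transgene, in which the MMTV promoter drives the polyoma middle T oncoprotein in the mammary epithelium. Their tissue was hyperplasia at week 6, adenoma/MIN at week 8, early carcinoma at week 10 and late carcinoma at week 12, and all 4 stages are called tumor here. Normal mammary glands came from age-matched FVB females without the transgene. Each of the 8 groups had 3 mice and 1 library per mouse. A normal gland is a whole organ with epithelium, fat, stroma, vessels and blood cells, so the groups also differ in which cells they hold.

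The mature miR-146 strands are best known as brakes on innate immune signaling. NF-kB induces transcription of the miR-146a gene after Toll-like receptor or cytokine stimulation, and the miRNA represses the adaptor proteins TRAF6 and IRAK1, which lie upstream of NF-kB. Loss of miR-146a in mice leads to overactive myeloid cells and lymphocytes, while both paralogs are also expressed in epithelial and tumor cells.

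The 4 mature sequences of the family are shown because they define what the family shares and what a read can tell apart. They are RefSeq sequences from a table of build GRCm38.p6, written 5′ to 3′, with the seed (bases 2 to 8, the part that pairs with target mRNAs) in capitals.
mmu-miR-146a-5p: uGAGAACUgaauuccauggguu
mmu-miR-146b-5p: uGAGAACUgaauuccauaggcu
mmu-miR-146a-3p: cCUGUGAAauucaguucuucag
mmu-miR-146b-3p: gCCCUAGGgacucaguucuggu

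The 5p strands carried the same seed, GAGAACU, which stood in these 2 sequences and in no other of the 1738 mature sequences of that table. They were identical at 20 of 22 positions, with substitutions G18A and U21C, counted from the 5′ end with the base of miR-146a first. The first 17 bases were therefore the same, and a read that ended there could not be assigned to either paralog. The 3p strands had different seeds and matched at 4 of 22 positions without gaps. The table counts reads per miRNA gene name, so the 5p and 3p strands of a paralog could not be separated.

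The paralogs lie on different chromosomes. In the mm9 annotation, the miR-146a hairpin (gene Mir146) is at chr11:43187899-43187963 on the minus strand. It is intergenic, 45789 bases from the nearest protein-coding gene, Pttg1. The miR-146b hairpin (Mir146b) is at chr19:46417252-46417360 on the plus strand, within Tmem180 on the same strand and in none of its annotated exons. The mature miR-146a-5p sequence occurred once in mm9. The mature miR-146b-5p sequence occurred 3 times, all on the plus strand within Tmem180. One copy, at chr19:46417280-46417301, was in the annotated hairpin, and the others were at chr19:46416764-46416785 and chr19:46417047-46417068. How reads with several matches were counted is not given in the sources used here.

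Library totals ranged from 1626022 to 3931375 counts in normal glands and from 1032241 to 2213972 counts in tumors, so a floor of 3 counts corresponds to at most 2.91 CPM, the count scaled to a library of 1e6 reads. The paralogs were far above this floor. miR-146a had 2479 to 8479 counts in normal libraries and 1023 to 3462 in tumor libraries, and miR-146b had 5229 to 16622 and 29783 to 72199. CPM values below are scaled by TMM, the normalization of edgeR, over all 24 libraries.

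The lowest of the 12 tumor libraries held more miR-146b than the highest of the 12 normal libraries, and the tumor-normal difference was called at each week. At week 6 it was at 2900, 3798 and 3170 CPM in the normal glands and at 32411, 24045 and 27497 CPM in the hyperplastic glands. Every hyperplasia library was above every normal library, and tumor exceeded normal 8.50-fold. At week 8 the normal libraries held 2552, 3368 and 3002 CPM and the adenoma libraries 29465, 38671 and 25808 CPM, a 10.3-fold difference. At week 10 the normal libraries held 3337, 2466 and 5662 CPM, and the early carcinomas 34118, 30176 and 34092 CPM. Normal replicate 3 of week 10 was the highest normal library of the series for both paralogs and was still far below each tumor library, with an 8.59-fold difference at that week. At week 12 the normal libraries held 2780, 3825 and 3667 CPM and the late carcinomas 28321, 28108 and 31802 CPM, an 8.54-fold difference.

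**Figure D1:**
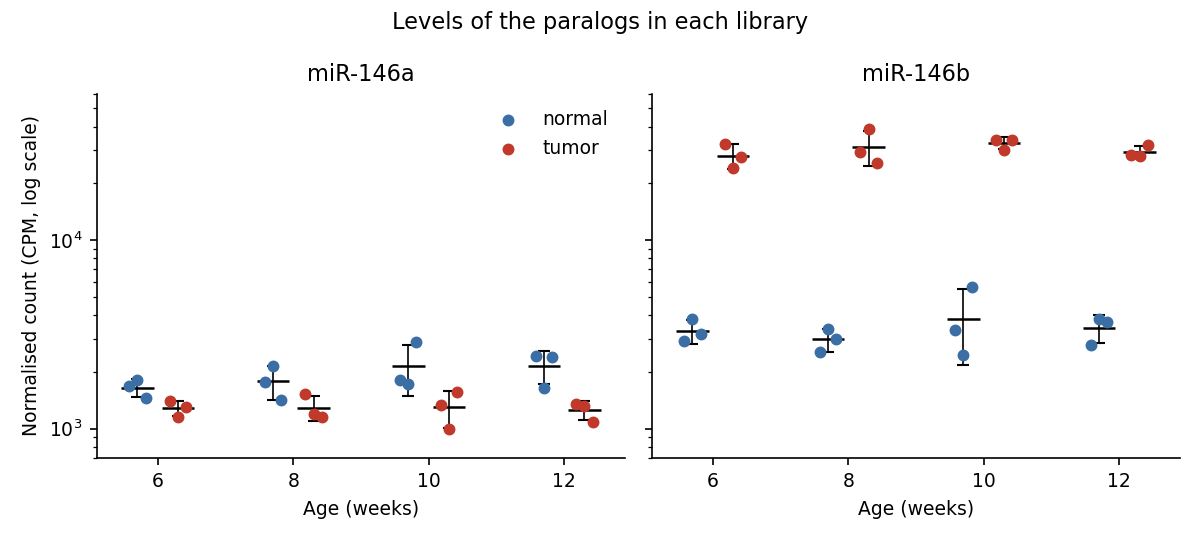
Level of miR-146a (left) and miR-146b (right) in CPM on a log axis against age in weeks, with 1 point per library, a bar at the mean and whiskers of 1 SD (n = 3). Tumor libraries held at least 24045 CPM of miR-146b and normal libraries at most 5662 CPM, whereas the tumor libraries of miR-146a were between 992 and 1561 CPM and the normal ones between 1423 and 2888 CPM.

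The log2 fold changes of miR-146b (tumor over normal) were 3.09 ± 0.18 (SE), 3.37 ± 0.24, 3.10 ± 0.29 and 3.10 ± 0.23 at weeks 6, 8, 10 and 12. By the quasi-likelihood test of edgeR, adjusted over the 237 tested miRNAs by the Benjamini-Hochberg method, the p-values were 4.92e-05, 1.68e-04, 2.25e-04 and 1.17e-04, with n = 3 libraries per group. Such calls were common, since 58.6%, 35.4%, 60.3% and 50.6% of the tested miRNAs were called in either direction at the 4 weeks (84 miRNAs at week 8, or 131 with the replicate number as a block), and 29.1%, 21.9%, 32.9% and 29.1% were called higher in tumors. No overlap between tumor and normal libraries, in the higher direction, was likewise seen for 33.8%, 31.2%, 35.4% and 33.3% of them. By the size of its log2 fold change, miR-146b was number 3, 4, 6 and 6 from the top of the 237, where the median miRNA was at -0.12, -0.09, -0.15 and -0.19.

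Few miRNAs had so large a difference, and the others were less abundant in tumors. Between 3 and 7 miRNAs a week were called with a log2 fold change of at least 3, miR-146b among them at each week. The mean level of miR-146b in tumors was between 27984 and 32795 CPM. The most abundant of the others was miR-92b, of the family that includes miR-92a, at 924 CPM in week 6, and miR-31, a miRNA studied in metastasis, at 2932, 2963 and 3600 CPM in weeks 8, 10 and 12. By counts per library, miR-146b took 0.235% to 0.573% of the reads in normal glands and 2.46% to 3.57% in tumors. In the order of abundance it held places 28 to 46 among the miRNAs of a normal library and places 5 to 7 among those of a tumor library. The level of miR-146b, its part of the reads and its place could depend on how reads with several matches were counted.

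miR-146a did not follow its paralog. Its mean was lower in tumors at each week, and the difference passed the test in the carcinomas of weeks 10 and 12 and missed it at weeks 6 and 8. At week 6 it was at 1684, 1802 and 1449 CPM in normal glands and at 1400, 1157 and 1295 CPM in hyperplasia. These libraries did not overlap, but the log2 fold change of -0.36 ± 0.16 (SE) was not called (adjusted p = 0.0884, edgeR). At week 8 the normal libraries held 1773, 2143 and 1423 CPM and the adenomas 1526, 1203 and 1154 CPM. Adenoma replicate 1 was above normal replicate 3, and the log2 fold change of -0.49 ± 0.24 was not called (adjusted p = 0.134, edgeR).

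In early carcinoma at week 10, miR-146a fell to 60.5% of the normal level. The normal libraries held 1803, 1730 and 2888 CPM and the tumors 1340, 992 and 1561 CPM, without overlap. The log2 fold change was -0.73 ± 0.24 (SE), with an adjusted p of 0.0357 from edgeR. In late carcinoma at week 12 it fell to 57.5%, from 2416, 1649 and 2387 CPM in normal glands to 1358, 1314 and 1089 CPM. Again no library overlapped, and the log2 fold change was -0.80 ± 0.24, with an adjusted p of 0.0273 from edgeR. At these weeks 27.4% and 21.5% of the tested miRNAs were called lower in tumors, so the calls on miR-146a were not unusual, and it was in place 171 and 179 of 237 from the top. Both calls were lost in fits with 1 library fewer. That of week 10 was lost without tumor replicate 1, tumor replicate 2 or normal replicate 3, with log2 fold changes of -0.76, -0.56 and -0.54 and adjusted p-values of 0.0733, 0.108 and 0.0737. That of week 12 was lost without tumor replicate 2 or 3, or normal replicate 1 or 3 (adjusted p = 0.0762, 0.103, 0.0671 and 0.0614), with log2 fold changes of -0.72 to -0.70. At weeks 6 and 8, 29.5% and 13.5% of the miRNAs were called lower. Libraries that did not overlap, with tumors lower, were found for 35%, 21.5%, 31.2% and 30.8% of the miRNAs at the 4 weeks.

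**Figure D2:**
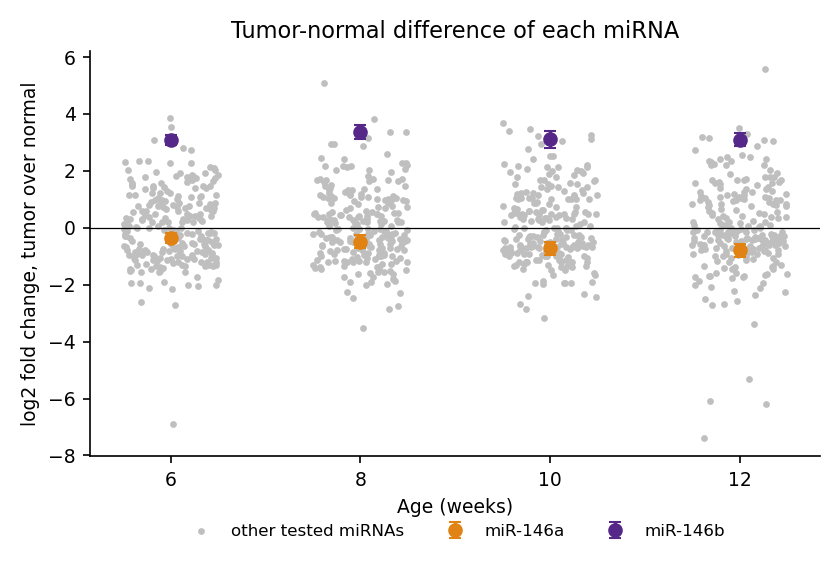
Log2 fold change (tumor over normal) of each of the 237 tested miRNAs against age in weeks. Grey points are other miRNAs, spread sideways for legibility, and the 2 paralogs are shown with whiskers of 1 SE. miR-146b stayed near the top of the distribution at 3.09 to 3.37, while miR-146a was between -0.80 and -0.36.

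The contrast between the paralogs can be read within each library, where depth and normalization cancel. In normal glands the ratio of miR-146b to miR-146a counts was 1.72, 2.11 and 2.19 at week 6 and 1.44, 1.57 and 2.11 at week 8. It was 1.85, 1.43 and 1.96 at week 10, and 1.15, 2.32 and 1.54 at week 12. miR-146b thus had the higher count in every normal library. Since miR-146b-5p has 3 matches in mm9 and miR-146a-5p has 1, the size of this ratio, and which paralog is higher in normal glands, could depend on how reads with several matches were counted. In tumors the ratio was 23.2, 20.8 and 21.2 at week 6, and 19.3, 32.2 and 22.4 at week 8. At week 10 it was 25.5, 30.4 and 21.8, and the late carcinomas gave 20.9, 21.4 and 29.2. The lowest tumor ratio was thus 19.3 and the highest normal ratio 2.32.

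The tumor-normal difference of the log2 ratio was 3.44, 3.84, 3.89 and 3.88 at the 4 weeks, which is 10.9-, 14.3-, 14.8- and 14.7-fold. Within a week an exact two-sided permutation test of 3 against 3 libraries gave p = 0.1 each time, the smallest it can give. Over all weeks the mean difference was 3.76, or 13.6-fold. With labels permuted within weeks, the exact p was 1.25e-05, the smallest that 160000 arrangements can give. The difference had the same direction at 4 of 4 weeks.

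**Figure D3:**
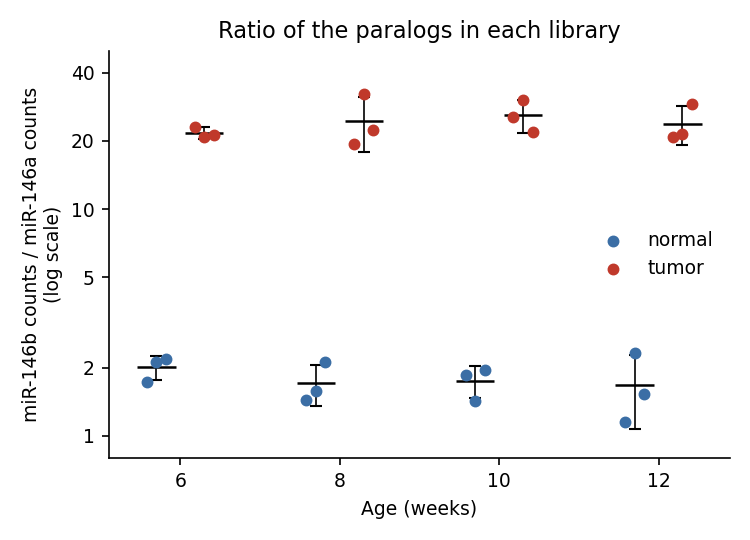
Ratio of miR-146b to miR-146a counts in each library on a log axis against age in weeks, with a bar at the mean and whiskers of 1 SD (n = 3). All 12 tumor libraries were between 19.3 and 32.2 and all 12 normal libraries between 1.15 and 2.32.

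Put as a share, miR-146b made up 53.5% to 69.9% of the family's reads in normal libraries and 95.1% to 97.0% in tumor libraries. The 95% Wilson intervals of these shares were at most 2.09 percentage points wide in normal libraries and at most 0.464 in tumor libraries, and they cover counting error only. Because the 5p strands share a seed, the summed level of both paralogs is also of interest. The sum was 4196 to 8550 CPM in normal glands, and tumors held 25201 to 39874 CPM. On the log2 scale tumors exceeded normal glands by 2.59 over all weeks, or 6.03-fold, with an exact permutation p of 1.25e-05, again the smallest possible. The weekly differences were 2.56, 2.77, 2.58 and 2.46. The shares, the sums and the fold of the sum could also depend on how reads with several matches were counted.

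Neither difference was found to change with stage. The test of the tumor-normal difference between the 4 weeks gave adjusted p-values of 0.938 for miR-146a and 0.971 for miR-146b (edgeR, all 24 libraries), and it called 0 of the 237 miRNAs, with 9 at an unadjusted p under 0.05. From week 6 to week 12 the tumor-normal log2 difference of miR-146a moved by -0.42 ± 0.31 (SE, adjusted p = 0.461, edgeR), a value that was -0.09 with library sizes in place of TMM and between -0.64 (without normal replicate 2) and -0.25 (without tumor replicate 3) with 1 replicate left out. That of miR-146b moved by 0.01 ± 0.33 (adjusted p = 0.994, edgeR), where 0.422% of the tested miRNAs were called.

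The order of the group means was by tissue first. For miR-146b the tumor means were 27984 ± 4204 CPM (SD, n = 3) in hyperplasia, 29410 ± 2074 in late carcinoma, 31314 ± 6628 in adenoma and 32795 ± 2268 in early carcinoma. Its normal means were 2974 ± 408, 3289 ± 461, 3424 ± 563 and 3822 ± 1652 CPM, at weeks 8, 6, 12 and 10 in that order. Neighbors within a tissue overlapped in their libraries, and the step from normal to tumor was the only gap. For miR-146a the tumor means were 1254 ± 144 in late carcinoma, 1284 ± 122 in hyperplasia, 1294 ± 202 in adenoma and 1298 ± 287 in early carcinoma, which is a spread of means smaller than any of the SDs. The normal means were 1645 ± 180, 1780 ± 360, 2140 ± 649 and 2151 ± 434 CPM, in the order of the weeks. All neighbors in that order overlapped, the step from tumor to normal included.

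Within tumors, week 12 against week 6 gave a log2 fold change of -0.03 ± 0.22 (SE) for miR-146a and 0.07 ± 0.23 for miR-146b, neither called, where 7.59% of the miRNAs were called. Within normal glands miR-146a was at 0.39 ± 0.22 and miR-146b at 0.06 ± 0.23, with adjusted p-values of 0.230 and 0.894 (edgeR), where 21.1% of the miRNAs were called. With library sizes in place of TMM, the value of miR-146a in normal glands was 0.07.

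The miRNAs whose profile was most like that of each paralog were different. Likeness was the root mean square difference of log2 CPM over the 24 libraries after each miRNA was centered on its own mean. These libraries include both tissues, so the tumor-normal difference of a miRNA is a large part of this measure. Different neighbors therefore follow from the opposite differences of the paralogs and are not a separate result. Likeness within a tissue was not computed. For miR-146b the nearest were miR-200b at 0.41, miR-92b at 0.42, miR-31 at 0.44, miR-466b at 0.47 and miR-429 at 0.54. miR-200b and miR-429 belong to the epithelial miR-200 family. Their log2 fold changes were 2.30 to 2.88 for miR-200b, 3.20 to 3.55 for miR-92b, 2.79 to 3.83 for miR-31, 2.29 to 3.48 for miR-466b and 2.11 to 2.50 for miR-429. For miR-146a the nearest were let-7d at 0.26, miR-101a at 0.30, miR-26b at 0.30, miR-142 at 0.30 and miR-27a at 0.31. The log2 fold changes of these 5 ran from -0.81 to -0.02. miR-146b was in place 228 of 236 in likeness to miR-146a, with a difference of 1.90.

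Markers of the cell types in the tissue moved between the groups too. In bulk tissue, fewer cells of a type and less RNA per cell cannot be told apart. As a background, 29.5%, 13.5%, 27.4% and 21.5% of all tested miRNAs were called lower at the 4 weeks and 29.1%, 21.9%, 32.9% and 29.1% higher. Of 6 epithelial miRNAs, the miR-200 family members miR-200a, miR-200b, miR-200c, miR-141 and miR-429 rose at each week, and miR-205, a miRNA of basal epithelium, did not pass the test at any. Summed, they reached 4134 to 11674 CPM in normal glands, and in tumors 18727 to 29295 CPM. Their median log2 fold change was 1.83, 2.20, 2.05 and 2.26 at the 4 weeks, against 3.09 to 3.37 for miR-146b, a difference with no test. Per summed epithelial CPM, miR-146b was at 0.305 to 0.887 in normal libraries and at 0.997 to 1.56 in tumor libraries. This sum includes miR-205, whose means at week 6 were 3802 CPM in normal glands and 3772 CPM in tumors. In the normal glands of week 12 miR-205 was at 3352 ± 3419 CPM (SD, n = 3). The ratio therefore depends on that member, and a ratio to the miR-200 family alone was not computed.

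Of the 4 leukocyte miRNAs, miR-150 of mature lymphocytes fell at each week, by 0.77 to 2.66 on the log2 scale, which is 1 of 3 tested against 29.5%, 13.5%, 27.4% and 21.5% of all miRNAs. miR-142, expressed across blood cell lineages, and miR-155 of activated lymphocytes and macrophages did not pass the test at any week, with log2 fold changes of -0.29 to -0.02 and -0.24 to 0.46. miR-223, the defining miRNA of myeloid cells, is listed at 0 counts in all 24 libraries, and the sources used here do not say whether its reads were counted, so this 0 is not read as an absence of myeloid cells. Their sum was 1681 to 3241 CPM in normal glands, and in tumors it was 1198 to 1868 CPM. Per summed leukocyte CPM, miR-146a was at 0.554 to 1.10 in normal libraries and at 0.630 to 1.00 in tumor libraries, ranges that overlap. The sum joins members that differed. At week 12 the mean of miR-150 was 1192 CPM in normal glands and 203 CPM in tumors, and that of miR-142 was 1648 and 1364 CPM. The ratio therefore depends on miR-150, and a ratio to miR-142 alone was not computed.

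All 5 miRNAs listed as stromal (miR-199a, miR-199b, miR-214, miR-143 and miR-145) fell at each week, as did miR-126 of endothelium. The sum of this list was 158619 to 276068 CPM in normal glands, and in tumors 70032 to 136943 CPM. Most of it was miR-143, with weekly means of 162473 to 231938 CPM in normal glands and 76047 to 95233 CPM in tumors. Of the 3 erythroid miRNAs (miR-144, miR-451 and miR-486), 1, 0, 1 and 3 fell at the 4 weeks, beside the same background. Of the 4 skeletal muscle miRNAs, miR-206 was too low to be tested and 0, 1, 0 and 3 of the others fell. Muscle miRNAs differed widely among the normal libraries, whose sums ran from 89.0 to 89335 CPM, against 39.9 to 18075 CPM in tumors. Normal replicate 3 of week 10, the highest normal library for both paralogs, held 45430 CPM of them, against 160 and 89.0 CPM in the other normal libraries of that week. Tumor replicate 3 of that week held 17298 CPM. Without normal replicate 3, the log2 fold change at week 10 was -0.54 for miR-146a and 3.39 for miR-146b. Normal replicate 1 of weeks 6 and 12 held more muscle miRNA, 87491 and 89335 CPM. These libraries had the lowest miR-146b of the normal glands of their weeks, 2900 and 2780 CPM. Their miR-146a was at 1684 and 2416 CPM, the middle and the highest value of the normal glands of their weeks. The part of these other cells in the differences of the paralogs was not tested beyond these values.

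Other miRNAs that respond to NF-kB or innate immune signals were also listed. Of the 6, 5 were tested, and miR-147 was too low. With 29.1%, 21.9%, 32.9% and 29.1% of all tested miRNAs called higher at the 4 weeks, counts of 0 or 1 of 5 are near that background. None was called higher at weeks 6 and 8. miR-9 alone was called higher at weeks 10 and 12, with log2 fold changes of 2.51 and 5.57 (adjusted p = 0.00468 and 0.0105, edgeR). At week 8 miR-9 had the largest log2 fold change of the 237 miRNAs, 5.10, but was not called (adjusted p = 0.0573, edgeR), and its libraries overlapped. Its tumor libraries differed widely, at 604 ± 1015 CPM (SD, n = 3) in week 8 and 1194 ± 1754 CPM in week 12. miR-132 fell at weeks 8 and 10, with log2 fold changes of -0.93 and -0.66 (adjusted p = 0.0411 and 0.0287, edgeR). miR-21, a widely expressed miRNA raised in many tumors, was at -0.18, 0.28, 0.32 and -0.09, and neither it nor miR-155 or miR-212 was called. The median of the 5 was -0.18, 0.28, 0.19 and -0.10.

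Within a tissue, the libraries were also compared with one another in 8 relations (4 in each tissue, 12 libraries each, on log2 CPM). The 12 libraries pool the 4 weeks, and values were permuted across weeks, so differences between ages or stages are part of these relations. The normal libraries of week 6 had the lowest leukocyte sums of their tissue, 1681 to 2011 CPM. The tumor libraries of week 6 had the lowest epithelial sums of theirs, 18727 to 20779 CPM. Relations within a week were not tested. Across tumors, miR-146a and miR-146b had a Pearson's r of 0.21 (permutation p = 0.521) and a Spearman's rho of 0.29 (p = 0.367, permutation). Across normal glands r was 0.53 (permutation p = 0.0763) and rho 0.29 (p = 0.369, permutation). Without the 2 libraries farthest from the median of miR-146b, r was 0.27 in tumors and 0.07 in normal glands, so the latter rested on those libraries. Within the 2 sequencing lanes r was 0.09 and 0.27 in tumors and -0.09 and 0.75 in normal glands.

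The strongest relation was that of miR-146a with the summed leukocyte miRNAs in normal glands. Here r was 0.63 (permutation p = 0.0279, adjusted over the 8 relations 0.153) and rho 0.63 (p = 0.0322, adjusted 0.258, permutation). Within lanes r was 0.54 and 0.75, and without the 2 farthest libraries 0.52. The same relation in tumors had r = 0.34 and rho = 0.23 (permutation p = 0.280 and 0.471), r = -0.0004 and 0.30 within lanes, and 0.28 without the 2 farthest libraries. For miR-146b and the leukocyte miRNAs, the values were r = -0.07 and rho = -0.15 in normal glands (permutation p = 0.837 and 0.635) and r = -0.01 and rho = -0.14 in tumors (permutation p = 0.983 and 0.667). Within lanes these r were -0.38 and 0.23 in normal glands and 0.19 and -0.24 in tumors, and without the 2 farthest libraries -0.25 and -0.13.

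With the summed epithelial miRNAs, miR-146b had r = 0.54 and rho = 0.54 in normal glands (permutation p = 0.0670 and 0.0743) and r = 0.54 and rho = 0.48 in tumors (permutation p = 0.0696 and 0.121). Within lanes r was 0.86 and 0.35 in normal glands and 0.56 and 0.52 in tumors, and without the 2 farthest libraries 0.64 and 0.75. None of the 8 relations passed the adjustment, in which the smallest value was 0.153.

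**Figure D4:**
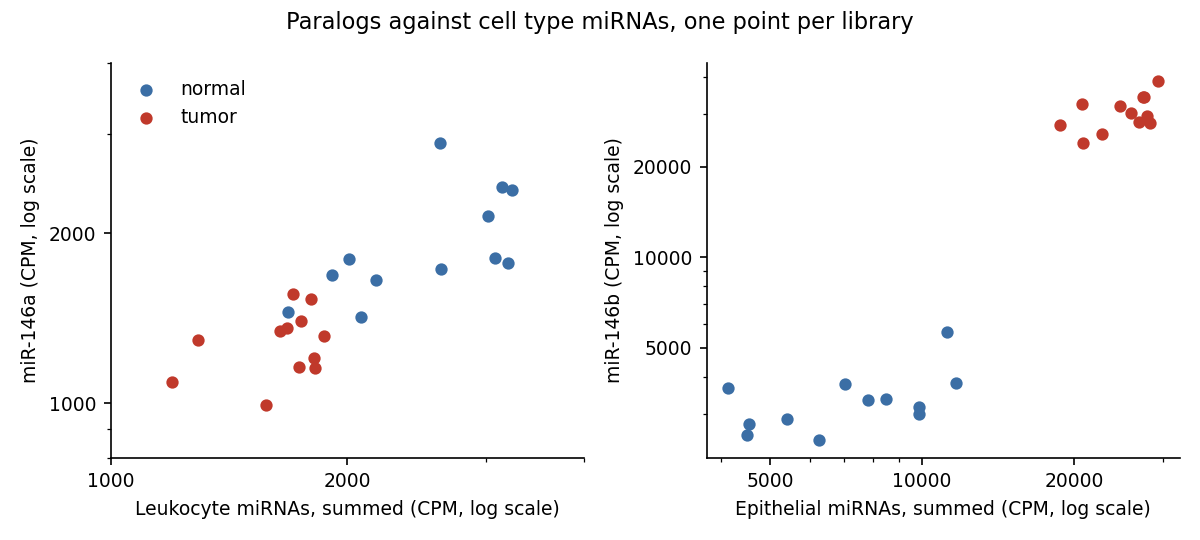
miR-146a against the summed leukocyte miRNAs (left) and miR-146b against the summed epithelial miRNAs (right), all in CPM on log axes, with 1 point per library colored by tissue. On the left the tissues adjoin and partly overlap, and on the right the 12 tumor libraries are separate from the 12 normal libraries on both axes.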

How the data were processed

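Small RNA libraries of tumors and normal glands were used, 24 in 8 groups of 3. The authors trimmed barcodes and adaptors, aligned reads of mature miRNA length with Bowtie, and deposited raw counts of reads overlapping each miRBase miRNA. Their methods name mm10 and the labels mm9, and positions here are mm9. Handling of mismatches and of reads with several matches is not given in the sources used here. Groups, weeks, replicate numbers and the 2 sequencing lanes came from the labels.

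For each week, edgeR 4.0.16 (R 4.3.3) compared 3 tumor with 3 normal libraries (TMM, quasi-likelihood test, Benjamini-Hochberg, threshold 0.05) on the 237 miRNAs kept by filterByExpr. Changes between weeks were tested in 1 fit of all libraries. Ratios and sums were tested with exact permutations within weeks, and relations with 100000 resamples across weeks (scipy 1.17.1). Log2 CPM used a prior count of 2. The named miRNAs were the paralogs, the 5 most like each, and list members. Paralogs and lists were chosen with earlier results of these data known.

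Replicate numbers were checked for pairing by the correlation of same-numbered libraries' deviations from their group means. It was above 0.1 for every pair at weeks 6 (0.359, 0.196, 0.510), 8 (0.526, 0.341, 0.361) and 10 (0.489, 0.752, 0.816). Week 12 gave 0.031, 0.424 and 0.072. The libraries of every pair shared a lane, those of week 12 included. The alternatives were other size factors (DESeq2 1.42.0), library sizes alone, DESeq2's Wald test, edgeR's classic exact test, other filters, 1 fit of all libraries, the replicate block, the lane as covariate and each replicate left out. In the tests between weeks and the permutation tests, a replicate was left out at every week at once. mRNA sequencing was not analysed here.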

Additional observations from a re-analysis of the deposited data

How the results depend on the processing

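miR-146b was called higher in tumors in 60 of 60 weekly alternatives, at log2 fold changes of 2.81 to 3.56 and adjusted p-values of at most 0.00545. miR-146a was lower in 60 of 60, between -0.99 and -0.22, and called in 21. At week 6 miR-146a was called with library sizes only (-0.50, adjusted p = 0.0287), and leaving out 1 library gave -0.44 to -0.22, with a call without normal replicate 3 (adjusted p = 0.0404). At week 10 its call was lost with the classic exact test (-0.73, adjusted p = 0.0976) and with the lane as covariate (-0.72, adjusted p = 0.0524), and values without 1 library ran from -0.91 to -0.54. At week 12 it was lost with library sizes only (-0.60, adjusted p = 0.0618) and with the classic exact test (-0.80, adjusted p = 0.0628), and values without 1 library ran from -0.99 to -0.70. The causes were not tested. Library sizes in place of TMM shifted the median of all miRNAs by -0.14, -0.13, -0.02 and 0.18 at the 4 weeks. Leaving out 1 library moved the number of called miRNAs from 139 to between 78 and 150 (week 6), from 84 to between 50 and 81 (week 8) and from 120 to between 74 and 120 (week 12). The lowest counts came without tumor replicate 2 at week 6 (89 without tumor replicate 1), tumor replicate 1 at week 8 and tumor replicate 3 at week 12.

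With the replicate block, 131 miRNAs were called at week 8 in place of 84. The block changed no call on either paralog, with adjusted p-values for miR-146a of 0.185, 0.142, 0.00258 and 0.0390 at the 4 weeks. An exact permutation test with labels exchanged only within same-numbered pairs gave p = 4.88e-04 for the ratio and the sum, the smallest possible. Over the other alternatives the ratio difference was 3.66 to 3.83 and the sum difference 2.51 to 2.66.

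Values near 0 changed sign without being called. For week 12 against week 6 in tumors, miR-146a was at 0.10 with DESeq2 size factors and 0.0078 with the lane as covariate. It was at -0.053 to 0.13 with 1 replicate of a tissue left out at every week. In the same comparison, miR-146b was at -0.048 with at least 10 counts in every library. In normal glands miR-146b was at -0.22 with library sizes only and -0.032 with at least 10 counts in every library. Its change in tumor-normal difference from week 6 to 12 was -0.016 with that filter and -0.048 to 0.25 with 1 replicate of a tissue left out at every week.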
